A study of Mus musculus with 12 samples.

Results

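The genes described here are Atf4 and 34 others, listed either for its amino acid response or as cytosolic tRNA synthetases. The 34 are 3 further transcription factors, 4 stress regulators, 8 enzymes of amino acid and one-carbon metabolism, and 19 cytosolic tRNA synthetase genes. Not all of them are known here to be controlled by Atf4. They were taken by gene symbol from a list and measured in the translating messenger RNA of cultured mouse keratinocytes, which form most of the epidermis. All 35 symbols were found among the 54532 genes of the count table, and all 35 were among the 13571 genes that passed the filter on low counts and were tested. The genes were chosen by symbol alone, and no threshold on a measured value was applied. The list was, however, drawn up with earlier results of these libraries in view, fold changes between these groups among them, so counts over the 35 genes describe them and support nothing further.

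Atf4 is the transcription factor at the centre of the integrated stress response. In that response a kinase phosphorylates the initiation factor eIF2, most translation slows, and ribosomes that pass short upstream reading frames in the Atf4 messenger RNA reach its coding sequence more often. The Atf4 protein pairs with C/EBP factors on DNA and is known to raise genes for amino acid uptake, amino acid synthesis and the enzymes that join amino acids to tRNA, together with genes that damp or end the response. The cytosolic synthetases charge tRNA for translation in the cytoplasm, and several of them are held in one large multi-synthetase complex. Here only messenger RNA was measured, so neither the Atf4 protein nor eIF2 phosphorylation can be read from these data.

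All groups had the genotype WT DP-BirA(1-584), so cells without the fusion protein are not part of these comparisons. In every group doxycycline at 2 µg/mL induced DP(1-584)-BirA, a biotin ligase joined to part of desmoplakin (DP), which is a protein of desmosomes, the junctions that hold keratinocytes together. Calcium was given to every group to start differentiation, and biotin was given for 16 h. Each translating fraction from a sucrose gradient was split on neutravidin, which binds biotin: the bound RNA is the cortical fraction and the RNA left after its removal is the total fraction. Cultures were wounded or left unwounded, which gives 4 groups of 3 libraries, named below by state and fraction (unwounded total, for example). The titles number biological replicates, but the labels do not say whether libraries with the same number came from 1 dish, so p-values measure the spread between these libraries. The total group is depleted of cortical RNA and is not a whole-cell sample, and a lower level in a bulk fraction can mean fewer contributing cells or less of the RNA per cell, which cannot be told apart.

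Libraries held 8980013 to 23457548 counts, and the lowest count of any of the 35 genes in any library was 173. Replicate 1 of the wounded total group stood apart from the other libraries. It had 13117 genes with a count against 14393 to 16867 elsewhere, and 41.2% of genes expected at 10 to 20 counts were at 0 in it, against 0.607% to 24.7% elsewhere. Each call among the 35 genes that rests on the wounded total libraries is given below with and without it. All 8 keratinocyte markers on the list had counts in every group. Their summed level was 8425 to 9702 CPM (counts scaled to a common library size, from TMM factors) in unwounded total, 13157 to 13219 in unwounded cortical, 14930 to 17662 in wounded total and 18542 to 18901 in wounded cortical libraries. Fibroblast, melanocyte and endothelial markers summed to at most 6.47 CPM in any library, and Lyz2 and Csf1r, 2 of the 5 leukocyte markers, were at 0 in all groups. Ptprc and Cd3e were also at 0 in the unwounded cortical and wounded total groups, so the leukocyte sum there was that of Cd68 alone. The summed leukocyte markers were at 20.9 to 24.9 CPM in unwounded total and 17.8 to 20.9 in unwounded cortical libraries. With wounding they were higher, at 43.2 to 58.7 CPM in the total and 32.9 to 38.6 in the cortical libraries. The part of differentiation or of other cells in those results was not tested.

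The promoters are shown because they can be searched for a DNA element that Atf4 is known to bind. RefSeq promoter windows (250 bases before to 50 after a start site, GRCm38.p6) were matched for 28 of the 35 genes. Those windows were searched on both strands for TGATGNAA, the C/EBP-ATF response element that Atf4 dimers are known to bind, and 9 of 28 genes (32.1%) held it. Among all 27025 RefSeq genes with such a window the share was 4.51%. Some of the 35 genes were listed as targets of Atf4, so the 2 shares describe the list and support nothing further. The genes with a match were Trib3, Chac1, Asns, Pycr1, Aars, Gars, Iars, Tars and Yars, and the Atf4 promoter had no match. The cyclic AMP response element TGACGTCA, which neither holds nor is held in the first motif, was found in 0 of 28 genes and in 2.03% of all genes. A match is only a run of letters and does not show binding. Each line below gives 30 bases around a match, 5′ to 3′ on the gene's strand, with that match in capitals.
Asns, chr6:7693214-7693243, minus strand: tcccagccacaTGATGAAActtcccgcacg
Chac1, chr2:119351038-119351067, plus strand: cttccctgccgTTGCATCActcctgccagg
Trib3, chr2:152344028-152344057, minus strand: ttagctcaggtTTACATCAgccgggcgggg
Pycr1, chr11:120643833-120643862, minus strand: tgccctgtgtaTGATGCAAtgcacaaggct
Aars, chr8:111033840-111033869, plus strand: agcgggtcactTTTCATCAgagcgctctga
Gars, chr6:55037960-55037989, plus strand: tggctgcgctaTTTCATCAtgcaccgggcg
Iars, chr13:49682126-49682155, plus strand: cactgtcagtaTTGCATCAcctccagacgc
Tars, chr15:11399655-11399684, minus strand: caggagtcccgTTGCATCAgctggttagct
Yars, chr4:129189895-129189924, plus strand: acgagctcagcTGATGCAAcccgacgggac
The element runs in either direction, as TGATGAAA in Asns and as its reverse complement TTTCATCA in Gars and Aars. In the comparison of wounded with unwounded total fractions, 2 of these 9 genes rose (Aars and Gars) and 0 fell. Of the 19 genes with a window and no match, 3 rose and 2 fell. Over all tested genes 8.39% rose and 7.2% fell. The median log2 fold change was 0.10 for the 9 and -0.12 for the 19. In the other comparisons no gene of the 9 passed the test, and the medians with and without a match were -0.03 and -0.09 between the unwounded fractions and 0.04 and 0.02 between the cortical fractions. Of the 9, edgeR called 0 in the unwounded cortical-to-total comparison, with 0 at an unadjusted p under 0.05 and 0 called by DESeq2. Of the 19 it called 3 higher and 3 lower, with 12 at an unadjusted p under 0.05 and 7 called by DESeq2. In the wounded cortical-to-total comparison edgeR called 0 of the 9, with 3 at an unadjusted p under 0.05 and 1, Aars, called by DESeq2. Of the 19 it called 1 higher and 2 lower, with 10 at an unadjusted p under 0.05 and 7 called by DESeq2. Over all genes edgeR called 14.2% (unwounded) and 15.7% (wounded), and DESeq2 called 16.4% and 18.6%. The share of all genes at an unadjusted p under 0.05 is not given here, and the 2 sets were not tested against each other. Of the genes with a match, some edgeR alternatives called Asns and Gars between the unwounded fractions. Between the wounded fractions some called Aars, Asns, Iars or Pycr1. Genes without a match were gained in both comparisons too.

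Counts were tested with edgeR's quasi-likelihood test in 1 model of all 12 libraries, and within each comparison p-values were adjusted (Benjamini-Hochberg) over all 13571 tested genes. A gene is said to have changed where the adjusted p was under 0.05, and n = 3 libraries per group throughout. Between cortical and total fractions of unwounded cells, 9 of the 35 genes passed: 5 were higher in the cortical fraction (Atf4, Sesn2, Eprs, Lars and Vars) and 4 lower (Phgdh, Psph, Farsa and Hars). Over all tested genes 14.2% passed, 6.62% higher and 7.59% lower. In wounded cells 3 of the 35 passed between the fractions, Atf4 higher and Cebpg and Psph lower, against 15.7% of all genes (7.62% higher, 8.03% lower). Wounding changed 9 of the 35 in the total fraction, against 15.6% of all genes (8.39% higher, 7.2% lower): Ddit4, Aars, Eprs, Gars, Qars and Vars rose, and Atf5, Dars and Hars fell. In the cortical fraction it changed 3, against 2.48% of all genes (1.6% higher, 0.884% lower): Ddit4 and Vars rose and Atf4 fell. The cortical-to-total ratio differed between wounded and unwounded cells for Atf4 alone of the 35, against 0.125% of all genes (0.0221% higher, 0.103% lower).

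The median log2 fold change of the 35 genes was 0.05 between the unwounded fractions, where it was 0.00 for all tested genes. It was 0.03 against 0.04 between the wounded fractions, -0.07 against -0.03 for wounding in the total fraction, and 0.03 against 0.02 for wounding in the cortical fraction. With wounding in the total fraction the 19 synthetases had a median of 0.19, with 13 of 19 positive. In all, 16 of the 35 genes passed in at least 1 comparison by edgeR and 19 in none, alternatives aside. Between the unwounded fractions, the 3 libraries of one group all lay above those of the other for 6 genes and below for 11, and groups were separated in this way for 36.2% of all tested genes.

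Atf4 (ENSMUSG00000042406, chr15:80255184-80257541 on the plus strand, mm10 coordinates of the deposited table) was the gene of the 35 that differed most between the fractions of unwounded cells. Its level in unwounded total libraries was 478, 522 and 475 CPM, a mean of 492 ± 26.0 (SD, n = 3). In unwounded cortical libraries it was 1355, 1393 and 1382 CPM (mean 1377 ± 19.9). All 3 cortical libraries lay far above all 3 total libraries, and the cortical libraries differed little among themselves. The cortical-to-total fold was 2.80, a log2 fold change of 1.49 (SE 0.12, adjusted p = 4.93e-07) by edgeR's quasi-likelihood test, which placed Atf4 at rank 180 of 13571 genes in order of that fold change.

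In wounded cells the Atf4 level was 376, 464 and 515 CPM in the total libraries (mean 452 ± 70.5). It was 641, 607 and 582 CPM in the cortical libraries (mean 610.1 ± 29.9). The 2 wounded groups still did not overlap, but the cortical group lay close above the total group and far below the unwounded cortical group. The cortical-to-total fold was 1.35 in wounded cells, a log2 fold change of 0.43 (SE 0.11, adjusted p = 0.0176) and rank 2790 of 13571. Dars (0.56) and Iars (0.44), which did not pass, had larger differences there, and Psph one of the same size in the other direction (-0.43). This smaller difference was lost when only those 6 libraries were fitted or without wounded cortical replicate 1 or 2, with an adjusted p of up to 0.0794 over the alternatives, and it was 0.31 (adjusted p = 0.011) without wounded total replicate 1.

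With wounding Atf4 fell by 1.17 on the log2 scale in the cortical fraction (SE 0.12, adjusted p = 6.27e-05 by edgeR's quasi-likelihood test). In the total fraction the difference was -0.12 with a 95% interval of -0.39 to 0.14 and an adjusted p of 0.54, and the wounded and unwounded total libraries overlapped. The difference between the cortical-to-total log2 ratios of wounded and unwounded cells was -1.05 (SE 0.16, 95% interval -1.43 to -0.68, adjusted p = 0.012 by edgeR). Only 17 of the tested genes passed for this difference, and Atf4 had the 7th smallest p among them. The value ran from -1.17 to -0.97 over 20 alternatives and passed in 15. It missed the threshold, with an adjusted p of up to 0.0876, when any unwounded cortical replicate, wounded cortical replicate 2 or wounded cortical replicate 3 was left out, and without wounded total replicate 1 it was -1.17 (adjusted p = 8.87e-06).

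**Figure D1:**
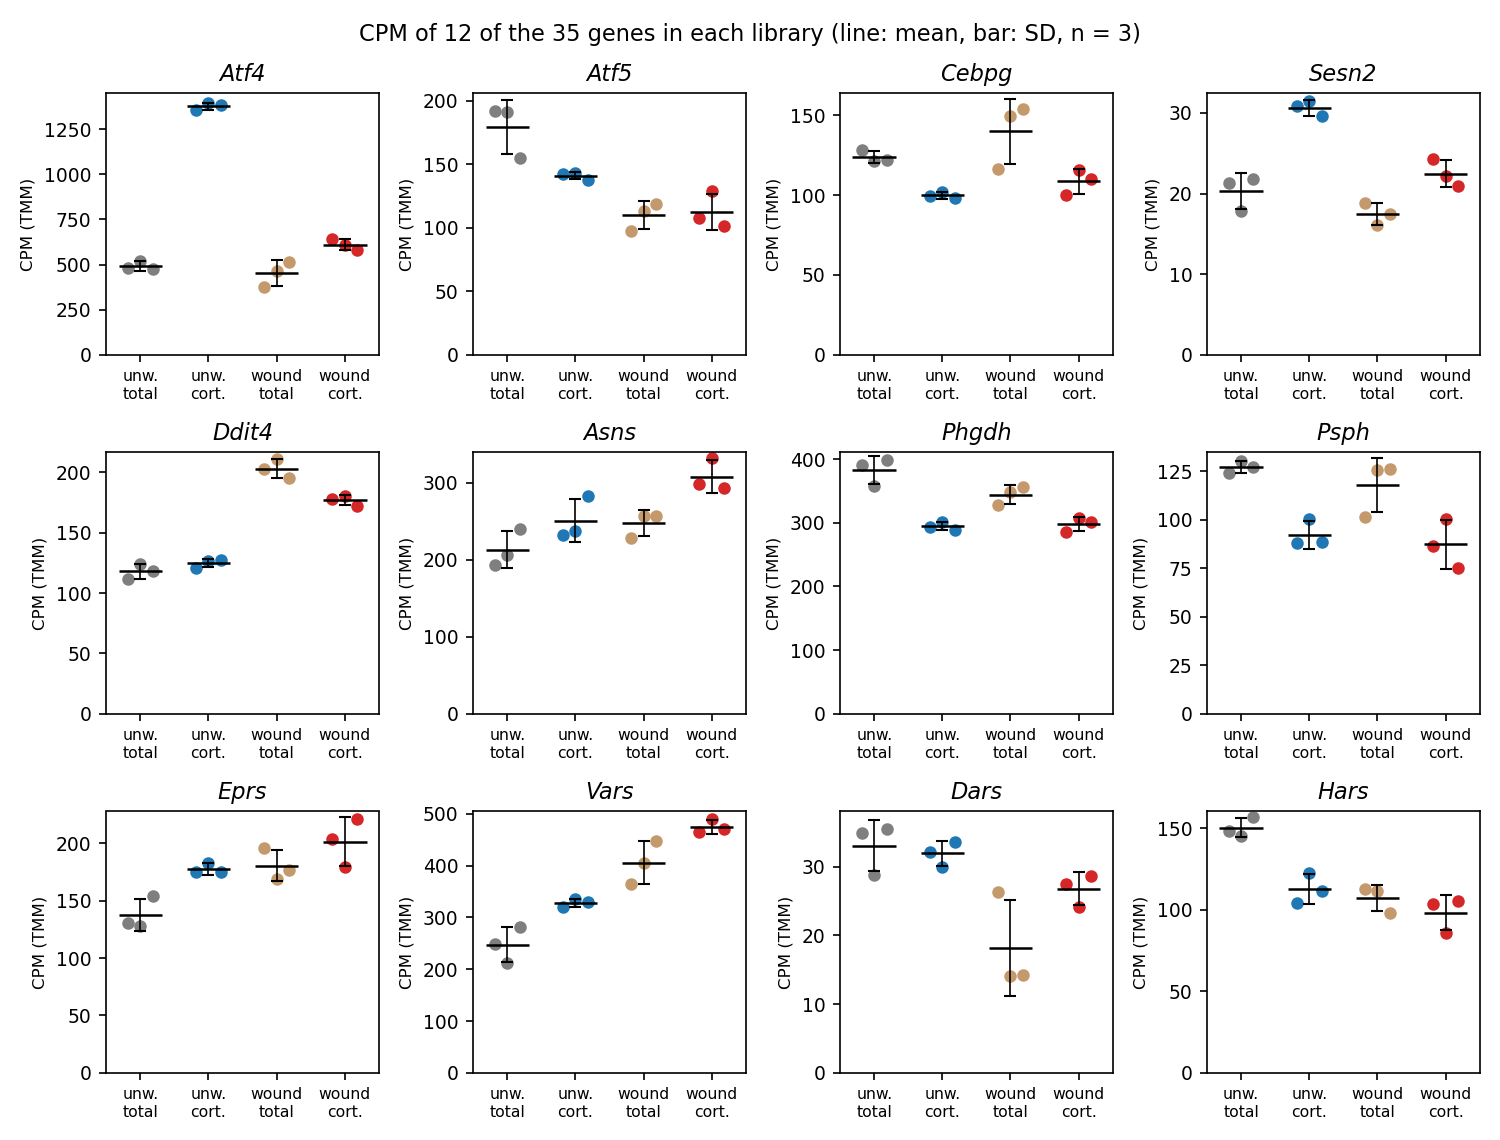
Level in CPM (linear axis) of 12 of the 35 genes in each library, with 1 point per library and the 3 libraries of each group side by side. Lines mark the mean of each group and bars its SD. The unwounded cortical libraries stand apart for Atf4 at 1355 to 1393 CPM, and both wounded groups lie above both unwounded groups for Ddit4.

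Of the 4 transcription factors, Atf4 was the only one called between unwounded fractions by edgeR, alternatives aside, where 14.2% of all genes passed. An unadjusted p under 0.05 was found for 3 of the 4, in opposite directions: Atf4 was higher in the cortical fraction, and Atf5 (-0.34) and Cebpg (-0.31) were lower. Atf5, a related factor that is also translated under eIF2 phosphorylation, was measured at 192, 191 and 154 CPM in unwounded total and 97.7, 113 and 119 CPM in wounded total libraries. Every wounded library lay below every unwounded one. Atf5 thus fell by 0.71 on the log2 scale in the total fraction (SE 0.12, adjusted p = 0.00081 by edgeR), and it passed under all 21 alternatives, at -0.63 (adjusted p = 0.000175) without wounded total replicate 1. In the cortical fraction it was 142, 143 and 138 CPM before and 108, 128 and 101 CPM after wounding, a log2 difference of -0.33 (SE 0.12, adjusted p = 0.155) that did not pass. Exons of Atf5 share 82 bases with Nup62 and Il4i1 on the other strand, and these libraries are non-directional, so a part of its counts may belong to those genes.

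Cebpg, a C/EBP factor that pairs with Atf4, was lower in the cortical than the total fraction of wounded cells, at 99.9, 116 and 110.0 CPM against 116, 149.8 and 154 CPM. The groups were separated by less than the rounding of these values, and the log2 difference was -0.37 (SE 0.11, adjusted p = 0.0321) by edgeR. The unwounded fractions gave 99.3, 102 and 98.0 CPM (cortical) and 128, 121 and 122 CPM (total), a log2 difference of nearly the same size that did not pass: -0.31 (SE 0.11, adjusted p = 0.0685). The wounded call passed in 14 of 21 alternatives. It was lost with library size scaling, where the log2 difference was -0.13, with only the groups compared, and without wounded total replicate 2 or 3 or any 1 of the wounded cortical replicates. Without wounded total replicate 1 it was -0.49 (adjusted p = 0.000342). Cebpb, another C/EBP factor and one known in keratinocyte differentiation, passed in no comparison by edgeR, with group means from 128 CPM in wounded total to 139.8 CPM in unwounded total libraries.

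Ddit4 (also called Redd1) restrains the growth kinase mTORC1, and among the 4 stress regulators it changed most with wounding. It was measured at 112, 124 and 118 CPM in unwounded total and 203, 211 and 195 CPM in wounded total libraries. In the cortical fraction it was 121, 127 and 127 CPM before and 178, 180.1 and 172 CPM after wounding. Wounded libraries were higher in both fractions without overlap, and the spread within each group was small. Its log2 rise was 0.78 (SE 0.09, adjusted p = 3.66e-05) in the total and 0.50 (SE 0.09, adjusted p = 0.00704) in the cortical fraction by edgeR, and both passed under all 21 alternatives. In the total fraction the rise was 0.78 (adjusted p = 7.48e-07) without wounded total replicate 1. The cortical-to-total ratio of Ddit4 did not pass in either state by edgeR. In wounded cells the cortical libraries all lay below the total ones, at a log2 difference of -0.20 (adjusted p = 0.151 by edgeR), and DESeq2 called Ddit4 lower there (adjusted p = 0.0389).

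Sesn2, a sensor of leucine that also restrains mTORC1, was one of the 5 genes higher in the unwounded cortical fraction. Its level was 30.8, 31.5 and 29.6 CPM in unwounded cortical and 21.3, 17.8 and 21.9 CPM in unwounded total libraries, with no overlap. The log2 difference was 0.59 (SE 0.14, adjusted p = 0.00857) by edgeR, and it was lost only without unwounded total replicate 2. In wounded cells the difference was 0.36 (SE 0.14, adjusted p = 0.0897), from 24.3, 22.1 and 20.97 CPM (cortical) against 18.9, 16.1 and 17.5 CPM (total), and it did not pass. It passed without wounded total replicate 1, at 0.42 with an adjusted p of 0.0499. Trib3, a pseudokinase that feeds back on Atf4, and Chac1, an enzyme that breaks down glutathione, are commonly read as markers of Atf4 activity. Neither passed in any comparison by edgeR with TMM factors: Trib3 was at 28.4, 28.4 and 29.6 CPM in unwounded cortical and 32.9, 27.9 and 24.5 CPM in wounded cortical libraries, and Chac1 at 33.9, 33.7 and 30.4 CPM (unwounded) and 35.6, 34.8 and 25.6 CPM (wounded). In the total fraction Trib3 was at 37.6, 35.6 and 32.1 CPM before and 21.2, 29.3 and 30.5 CPM after wounding, with no overlap. The log2 difference was -0.38 (SE 0.15, adjusted p = 0.107), it was called with library size scaling (-0.48, adjusted p = 0.042), and without wounded total replicate 1 it was -0.23 (adjusted p = 0.27).

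In the serine pathway Phgdh, Psat1 and Psph make serine from a glycolysis intermediate. In unwounded cells Phgdh and Psph, 2 of these 3 enzymes, were called lower in the cortical fraction, where 7.59% of all genes were lower. Phgdh, the first enzyme, was at 390.4, 357 and 399 CPM in unwounded total and 294, 302 and 288 CPM in unwounded cortical libraries. Psph, the last, was at 124, 130.4 and 127 CPM (total) and 87.8, 101 and 88.6 CPM (cortical). For both genes all cortical libraries lay below all total libraries. The log2 differences were -0.38 (SE 0.09, adjusted p = 0.0127) for Phgdh and -0.46 (SE 0.12, adjusted p = 0.0147) for Psph by edgeR. Psat1, the middle enzyme, gave -0.22 (SE 0.10, adjusted p = 0.14), which did not pass with all 12 libraries and passed without wounded total replicate 1. Without unwounded cortical replicate 1 or 3 the calls of both Phgdh and Psph were lost. Psph was also lower in the cortical fraction of wounded cells, at 86.7, 100.2 and 75.1 CPM against 102, 126 and 126 CPM, a log2 difference of -0.43 (SE 0.12, adjusted p = 0.0211). That call passed in 15 of 21 alternatives: it was lost with library size scaling, where the difference was -0.20, with only the groups compared, and without wounded total replicate 2 or 3 or wounded cortical replicate 1 or 3. It was -0.53 (adjusted p = 0.000667) without wounded total replicate 1. Psat1 (-0.27, adjusted p = 0.0684) and Phgdh (-0.21, adjusted p = 0.155) did not pass between the wounded fractions by edgeR, alternatives aside. Psat1 passed there by DESeq2, with RLE scaling, with a mean of at least 50 counts and with the gene length trend removed (with and without the block). Phgdh passed there by DESeq2 and without wounded total replicate 1. Psph shares 452 exon bases with a Cct6a transcript on the other strand, so reads of the 2 genes cannot be told apart there.

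The other enzymes were Asns, which makes asparagine, Shmt2 and Mthfd2 of mitochondrial one-carbon metabolism, and Aldh18a1 and Pycr1 of proline synthesis. None of these 5 passed in any comparison by edgeR, alternatives aside. With library size scaling edgeR called Asns and Shmt2 higher in the cortical fraction in both states, and Pycr1 in wounded cells. Asns was also called there with the gene length trend removed, and Aldh18a1 without wounded total replicate 1. Without unwounded total replicate 3, Shmt2 passed between the unwounded fractions and for wounding in the total fraction. For wounding in the total fraction, 0 of the 8 enzymes passed by edgeR, 0 had an unadjusted p under 0.05 and DESeq2 called 0. Over all genes edgeR called 15.6% and DESeq2 19.2% there. In the cortical fraction edgeR called 0 of 8, with 1 at an unadjusted p under 0.05, and DESeq2 called 0. The shares over all genes were 2.48% by edgeR and 5.42% by DESeq2. Asns, the enzyme most often used to read out Atf4, was at 194, 206 and 239 CPM in unwounded total, 232, 237 and 283 in unwounded cortical, 229, 257 and 257 in wounded total and 298, 332 and 293 in wounded cortical libraries. Its wounded cortical libraries were the highest, and the difference from unwounded cortical libraries, 0.30 (SE 0.11, adjusted p = 0.183), did not pass. That difference passed by edgeR with only the groups compared (0.27, adjusted p = 0.015) and without wounded total replicate 1.

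**Figure D2:**
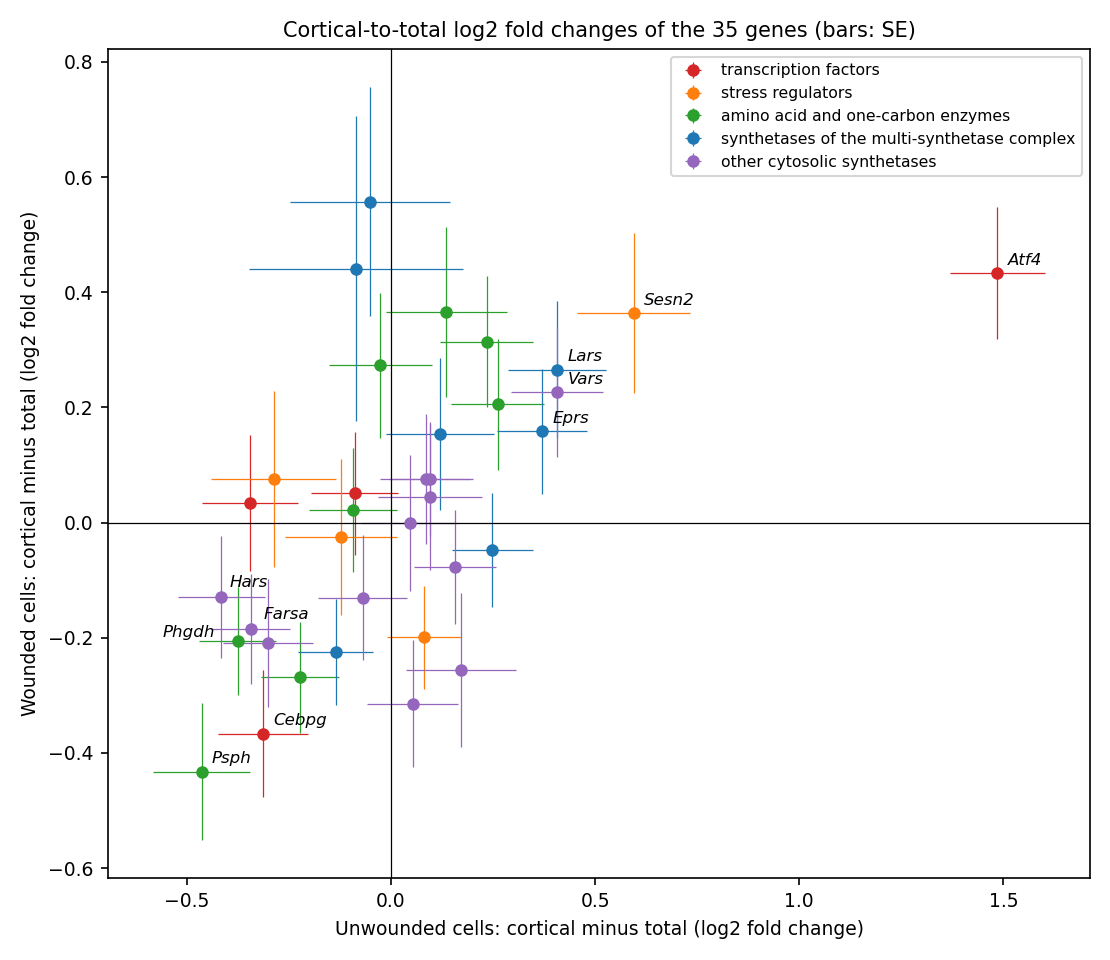
Cortical-to-total log2 fold change of each of the 35 genes in unwounded cells (horizontal) against wounded cells (vertical), coloured by role, with SE bars from the edgeR fit of 3 libraries per group. Atf4 lies alone at 1.49 and 0.43, and genes called in either state are named.

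Among the 7 synthetase genes of the multi-synthetase complex, Eprs and Lars were higher in the cortical fraction of unwounded cells. Lars, which charges leucine tRNA and also acts as a leucine sensor, was at 121, 117 and 149 CPM in total and 168, 179 and 167 CPM in cortical libraries. Eprs, a fused enzyme for glutamate and proline tRNA, was at 131, 128 and 154 CPM (total) and 175, 183 and 175 CPM (cortical). Neither gene overlapped between the groups. The log2 differences were 0.41 (SE 0.12, adjusted p = 0.0295) for Lars and 0.37 (SE 0.11, adjusted p = 0.0314) for Eprs by edgeR, and both calls were lost without unwounded total replicate 1 or 2 or any 1 of the unwounded cortical replicates. For the other 5 genes, Dars, Iars, Kars, Qars and Rars, the differences ran from -0.14 to 0.25 and did not pass by edgeR with all 12 libraries. Of these, Qars was called higher by DESeq2, with library size scaling, with only the groups compared and without wounded total replicate 1.

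Wounding moved the complex genes in both directions in the total fraction. Eprs rose to 196, 169 and 177 CPM, a log2 rise of 0.39 (SE 0.11, adjusted p = 0.0221) by edgeR that passed in 17 of 21 alternatives and was 0.33 (adjusted p = 0.0187) without wounded total replicate 1. Qars, which charges glutamine tRNA, rose from 191, 194 and 198 CPM to 224, 252 and 253 CPM without overlap, a log2 rise of 0.32 (SE 0.10, adjusted p = 0.0357), but it passed in only 9 of 21 alternatives, among them the one without wounded total replicate 1 (0.38, adjusted p = 0.0033). Dars, which charges aspartate tRNA, fell from 34.9, 28.8 and 35.5 CPM to 26.3, 14.0 and 14.3 CPM, a log2 difference of -0.86 (SE 0.20, adjusted p = 0.00782). Replicate 1 was the highest of the 3 wounded total libraries for Dars, and without it the log2 difference was -1.22 (adjusted p = 2.70e-06). Dars was then also higher in the cortical than the total fraction of wounded cells by 0.92 (adjusted p = 7.18e-05), and its ratio differed between wounded and unwounded cells by 0.97 (adjusted p = 0.00923). Iars, which charges isoleucine tRNA, was at 34.4, 26.7 and 32.1 CPM before and 26.5, 19.7 and 10.6 CPM after wounding, a difference of -0.71 (SE 0.26, adjusted p = 0.0795) that did not pass, and it was -1.03 (adjusted p = 0.00209) without that library.

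Vars, which charges valine tRNA and is not in the complex, was the synthetase that changed in the most comparisons. Its level was 249, 213 and 281 CPM in unwounded total, 319.6, 336 and 329 in unwounded cortical, 365, 405 and 448 in wounded total and 464, 491 and 470.2 in wounded cortical libraries. The lowest wounded cortical library lay above every library of the other groups. The log2 rise with wounding was 0.71 (SE 0.11, adjusted p = 0.000549) in the total and 0.53 (SE 0.11, adjusted p = 0.018) in the cortical fraction by edgeR. The first passed under all 21 alternatives, at 0.78 (adjusted p = 3.42e-06) without wounded total replicate 1, and the second was lost without any 1 of the 6 cortical libraries. Between the unwounded fractions Vars was higher in the cortical one by 0.41 (SE 0.11, adjusted p = 0.0231), which passed in 14 of 21 alternatives, and in wounded cells the difference was 0.23 (adjusted p = 0.199).

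Hars, which charges histidine tRNA, moved the other way and was lower in 2 comparisons. It was at 148, 146 and 157 CPM in unwounded total, 104, 122 and 111 in unwounded cortical and 113, 112 and 98.3 in wounded total libraries. The unwounded total group was above both others without overlap. The log2 difference was -0.42 (SE 0.11, adjusted p = 0.0147) for cortical against total and -0.48 (SE 0.11, adjusted p = 0.00579) for wounded against unwounded total by edgeR. The wounding difference passed under all 21 alternatives, at -0.52 (adjusted p = 0.00087) without wounded total replicate 1. The difference between the unwounded fractions passed in 15 of 21, and it was lost with library size scaling, with the gene length trend removed (with and without the block), and without unwounded total replicate 1 or unwounded cortical replicate 1 or 3. Hars shares 195 exon bases with Hars2, its mitochondrial neighbour on the other strand, and Hars2 had 3338 counts over all libraries against 25389 for Hars.

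Aars and Gars, which charge alanine and glycine tRNA, rose with wounding in the total fraction. Aars went from 125, 120.3 and 162 CPM to 212, 195 and 196 CPM, a log2 rise of 0.56 (SE 0.11, adjusted p = 0.00261) by edgeR that passed under all 21 alternatives. Exons of Aars share 1326 bases with Exosc6 on the same strand, and Exosc6 had 0 counts over all libraries. A part of the Aars counts may therefore belong to Exosc6. Gars went from 488, 472 and 560.3 CPM to 659, 638 and 709 CPM, a rise of 0.40 (SE 0.10, adjusted p = 0.0125) that passed in 16 of 21. The rises were 0.52 (adjusted p = 0.000667) for Aars and 0.41 (adjusted p = 0.00167) for Gars without wounded total replicate 1. Neither group pair overlapped for these genes. In the cortical fraction their differences were 0.20 (adjusted p = 0.393) and 0.17 (adjusted p = 0.429). Whether the response to wounding differed between fractions was tested. The difference was -0.37 (SE 0.16, adjusted p = 0.501) for Aars and -0.23 (SE 0.14, adjusted p = 0.672) for Gars, and neither passed. Between the wounded fractions the cortical-to-total log2 difference of Aars was -0.31 (adjusted p = 0.0653 by edgeR), which did not pass, alternatives aside. It passed by DESeq2, with RLE scaling, and with a mean of at least 50 counts. It also passed with the gene length trend removed (with and without the block) and without unwounded total replicate 3. Farsa and Farsb, the 2 subunits of the phenylalanine enzyme, gave -0.34 (SE 0.10, adjusted p = 0.023) and -0.30 (SE 0.11, adjusted p = 0.0831) between the unwounded fractions. Farsa passed, in 14 of 21 alternatives as well, and Farsb did not with all 12 libraries by edgeR.

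Cars, Nars, Sars, Tars, Wars, Yars, Kars and Rars passed in no comparison by edgeR, alternatives aside. Without wounded total replicate 1, edgeR called Kars lower and Rars higher in the cortical than the total fraction of wounded cells. Tars passed for wounding in the cortical fraction with only the groups compared. For wounding in the total fraction Tars passed without unwounded total replicate 3, and Wars without wounded total replicate 2. DESeq2 called Kars, Tars and Wars higher with wounding in the total fraction, and Kars lower in the cortical than the total fraction of wounded cells. In wounded cells 0 of the 19 synthetases passed between the fractions by edgeR, 4 had an unadjusted p under 0.05, and DESeq2 called 2, against 15.7% of all genes by edgeR and 18.6% by DESeq2. For wounding in the total fraction edgeR called 7 of the 19, 5 higher and 2 lower, where 15.6% of all genes passed, and DESeq2 called 11, where it called 19.2% of all genes. The median of the 19 was 0.19 where it was -0.03 for all genes. Among the 19 genes of the 35 that passed nowhere by edgeR, alternatives aside, the fitted log2 differences ran from -0.71 to 0.36 with wounding in the total fraction. Between the unwounded fractions they ran from -0.30 to 0.26.

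**Figure D3:**
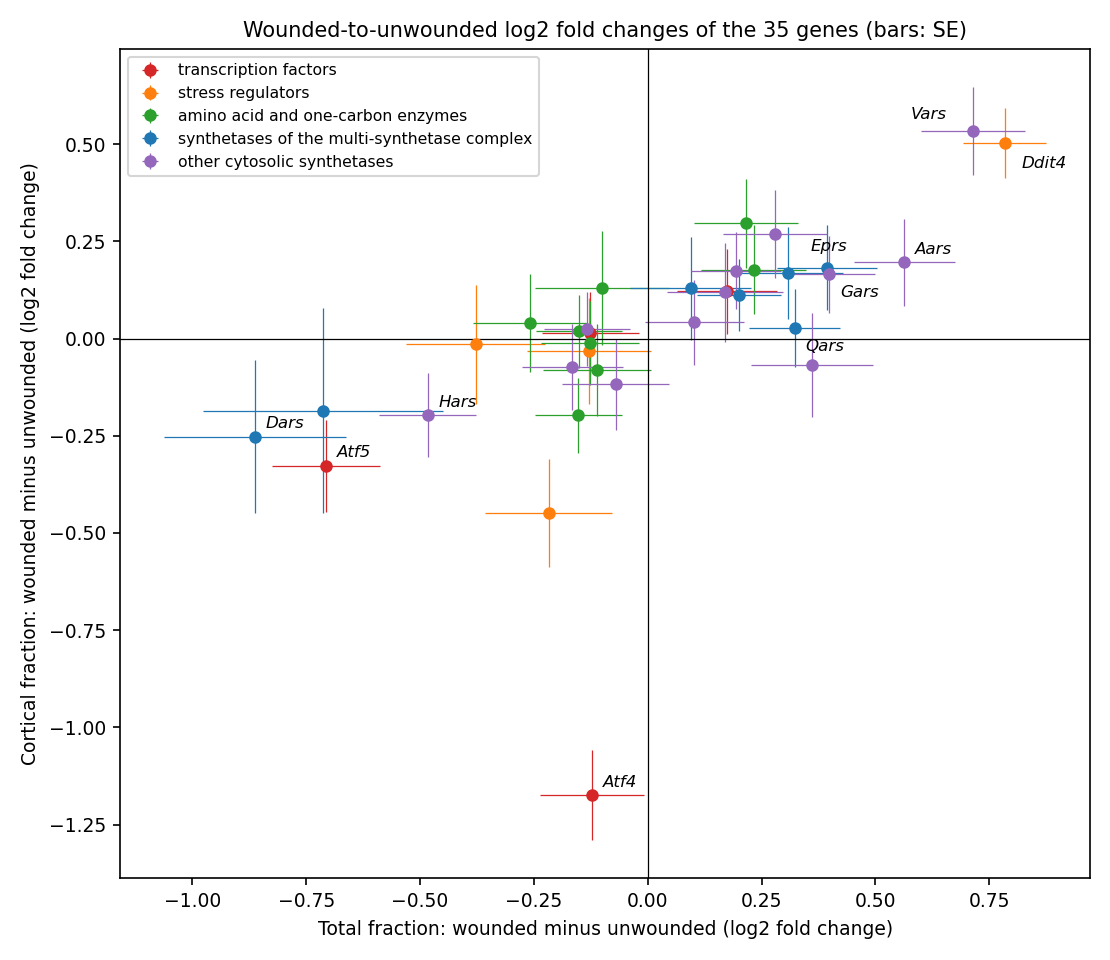
Wounded-to-unwounded log2 fold change of each of the 35 genes in the total fraction (horizontal) and the cortical fraction (vertical), coloured by role, with SE bars. Vars and Ddit4 lie at the upper right, and Atf4 lies alone at the bottom at -1.17 in the cortical fraction.

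Levels of different genes are compared per length, in FPKM, and refer to the deposited values. Atf4 had the highest mean FPKM of the 35 genes in 3 groups: 205 ± 9.40 in unwounded total, 582 ± 10.1 in unwounded cortical and 255 ± 13.2 in wounded cortical libraries. In wounded total libraries Gars was first at 215 ± 12.5 and Atf4 second at 192 ± 30.3, a difference within the spread of Atf4. Gars was second in the other 3 groups, and Phgdh followed Gars and Atf4 in all 4, at 151 ± 9.73 in unwounded total and 118 ± 2.47 in unwounded cortical libraries. The lowest levels were those of Iars (5.79 ± 0.768 in unwounded total), Sesn2 (5.74 ± 0.660), Dars (7.46 ± 0.875) and Eprs (7.47 ± 0.812), where the ranges of 1 SD overlapped between Iars and Sesn2 and between Dars and Eprs. Eprs may be understated on this scale, since its deposited gene length of 18102 bases is far above its longest coding sequence of 4536 bases. The same limit holds for other genes of the 35, such as Cebpg (5621 against 450 bases) and Psph (4329 against 675 bases).

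**Figure D4:**
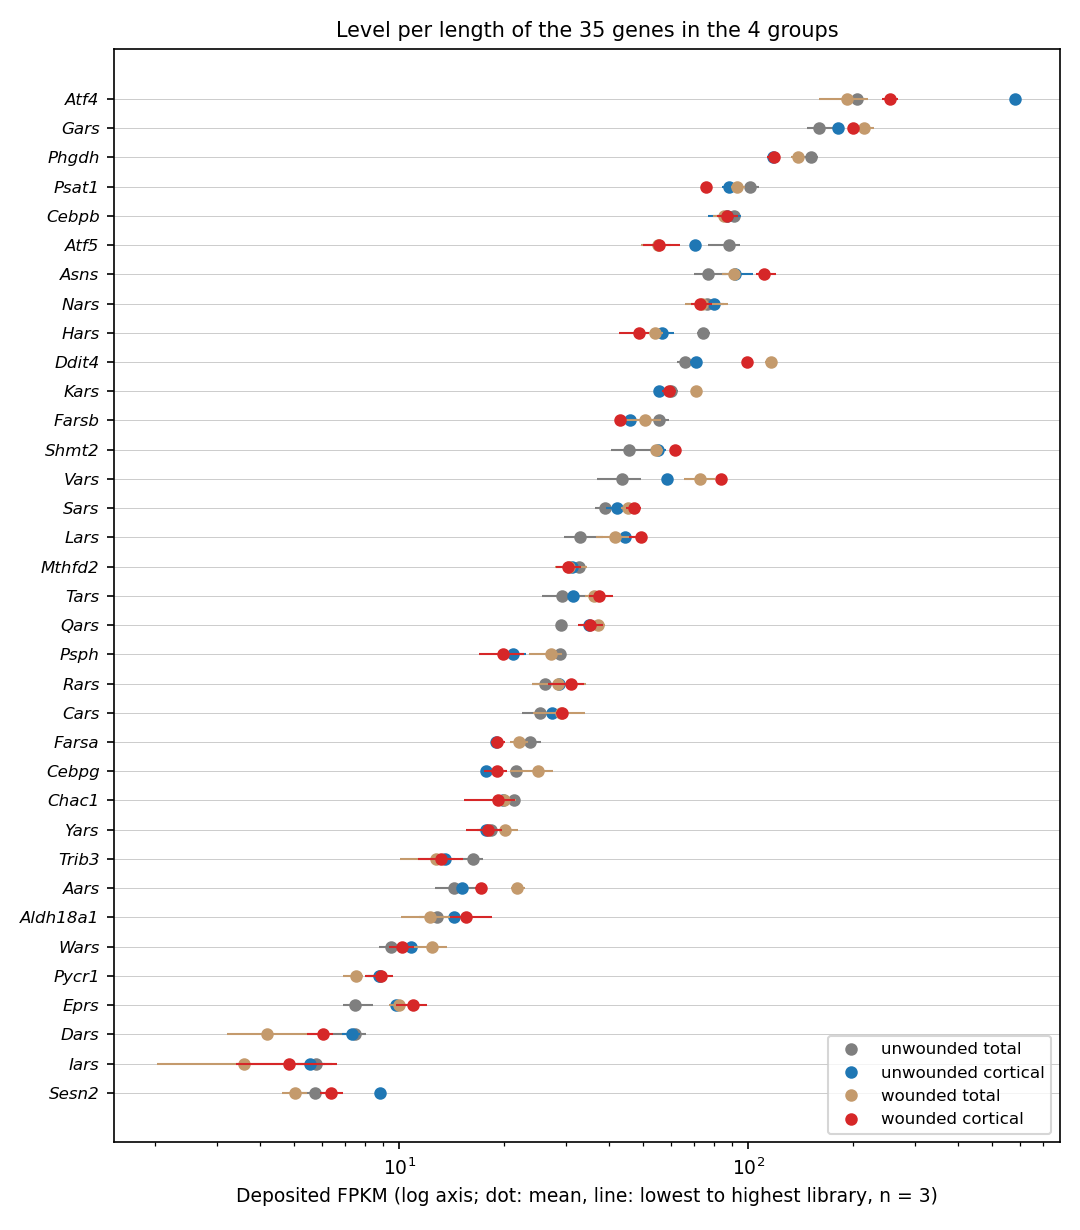
Mean deposited FPKM (log axis) of the 35 genes in the 4 groups, with lines from the lowest to the highest of 3 libraries. Atf4, Gars and Phgdh lie at the top in each group, and the low end holds Iars, Dars and Sesn2.

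The cortical fraction held relatively more of the long coding sequences. Over 11487 protein-coding genes tested, the cortical-to-total log2 fold change rose with the length of the longest coding sequence (Spearman's rho 0.477 across genes in unwounded cells and 0.475 in wounded cells). These values describe the genes of 12 shared libraries, and genes are not replicates. For the 35 genes rho was 0.45 and 0.243, for the 34 without Atf4 it was 0.529 and 0.3, and for the 19 synthetases it was 0.525 and 0.375. Of the synthetases called between the unwounded fractions, Lars (3534 bases), Vars (3834) and Eprs (4536) were higher in the cortical fraction and Farsa (1524) and Hars (1527) lower. Iars and Aars do not follow the order: with 3786 and 2904 bases, they had log2 differences of -0.09 and 0.05. Psph, with 675 bases, was lower too. Atf4 lies apart from this order: its longest coding sequence is 1047 bases, and the 1168 genes within 10% of that length had a median of -0.06 in unwounded cells, with 17 at or above Atf4.

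When the trend with gene length was removed from each library, 6 of the 35 genes passed between the unwounded fractions, against 10.3% of all genes. They were Atf4 at 1.60 (adjusted p = 1.68e-08 by edgeR), Sesn2, Lars, Cebpg, Psph and Farsa. Eprs moved to 0.04 (adjusted p = 0.89) and Vars to 0.30 (adjusted p = 0.118), and Phgdh (-0.28, adjusted p = 0.0575) and Hars (-0.27, adjusted p = 0.159) no longer passed. With wounding in the total fraction, 9 genes passed with the trend removed and 9 without its removal. In that comparison the longest coding sequence, which differs from the deposited gene length used for the trend, gave a rho of -0.0346 over all genes and 0.507 over the synthetases.

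**Figure D5:**
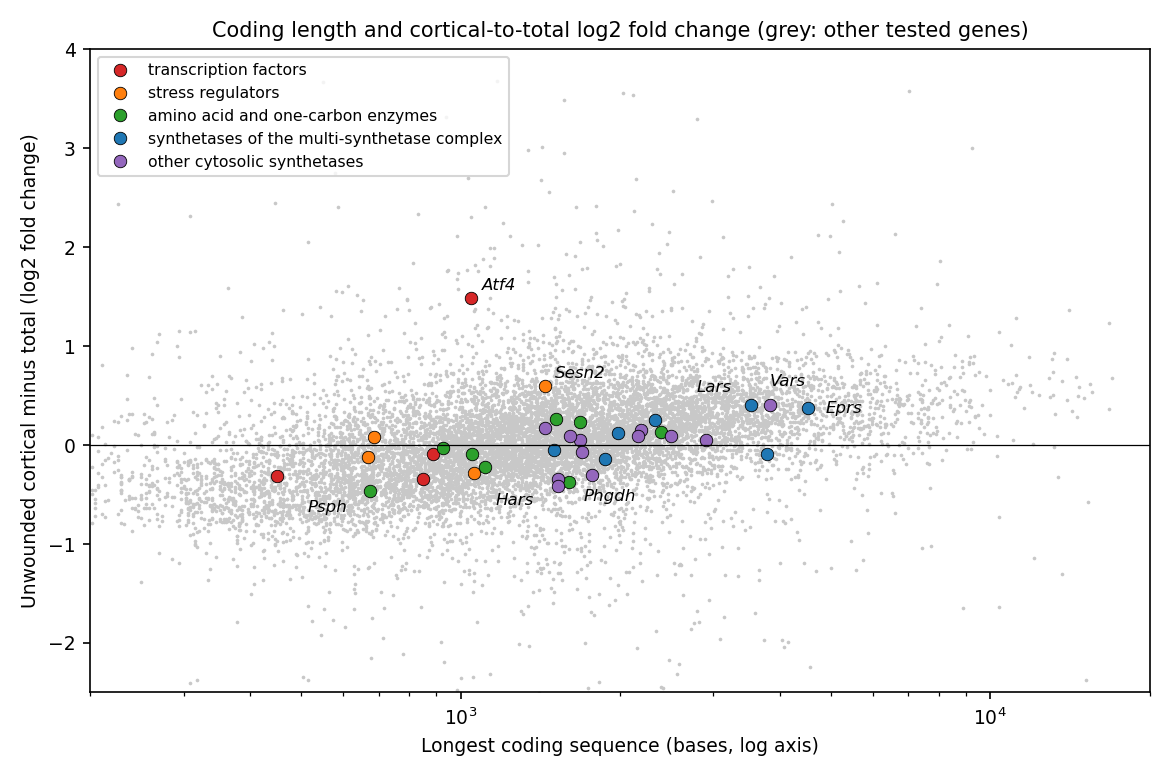
Longest coding sequence (log axis, bases) against the cortical-to-total log2 fold change in unwounded cells, with the 35 genes coloured by role over 11494 tested genes that have a coding sequence, of which 82 lie outside the axes. Lars, Vars and Eprs sit above 0 and the short Psph below it, while the long Iars lies at -0.09, and Atf4 stands at 1.49 with 1047 bases.

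Scaling by library size alone, without TMM factors, moved the median of all genes by 0.19 between the unwounded fractions and 0.21 between the wounded fractions. With it, 9 of the 35 genes were higher and 0 lower in the unwounded cortical fraction, in place of 5 and 4 (1582 higher and 469 lower over all genes, in place of 898 and 1030), and 7 higher and 0 lower in the wounded one, in place of 1 and 2 (2203 and 520 over all genes, in place of 1034 and 1090). Measured from the centre of all genes, the values hardly moved: Phgdh was -0.38, Psph -0.46, Farsa -0.34 and Hars -0.42 between the unwounded fractions under this scaling, and Atf4 1.49. The calls of these 4 lower genes were lost with this scaling. For wounding in the total fraction the split under this scaling was 3 higher and 4 lower, in place of 6 and 3.

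Counts of called genes depended on single libraries. Without wounded total replicate 1, 14 of the 35 genes passed between the unwounded fractions (22.4% of all genes), 12 between the wounded fractions (24.7%), 11 for wounding in the total fraction (24.9%), 6 for wounding in the cortical fraction (9.07%) and 2 for the difference of ratios (2.93%). Between the unwounded fractions the count was 3 without unwounded total replicate 1 (8.57% of all genes) or 2 (6.69%), and 2 without unwounded cortical replicate 1 (8.73%) or 3 (8.64%). Between the wounded fractions it was 0 without wounded cortical replicate 1 (8.82% of all genes), and 1 without wounded cortical replicate 2 or 3 or wounded total replicate 2 or 3 (7.66% to 10.1%). It was 0 when only those 6 libraries were fitted (7.66%). The calls over all genes thus fell along with those of the 35. Atf4 was among the called genes between the unwounded fractions, and as lower in the wounded cortical fraction, in all 21 alternatives.

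Other genes of the pathway were taken from lists, which also were drawn up with earlier results known. Among their calls in comparisons with wounded total libraries, the one of Vars2 was the only one lost without wounded total replicate 1. Of 9 tested genes for eIF2 kinases, their regulators and eIF2 phosphatase subunits, 2 were higher in the cortical fraction in both states, where 6.62% (unwounded) and 7.62% (wounded) of all genes were higher, and they were Gcn1l1 and Ppp1r15b. With wounding in the total fraction 1 rose and 2 fell, against 8.39% and 7.2% of all genes. Gcn1l1, which the kinase Gcn2 needs to sense uncharged tRNA, was at 36.6 ± 4.92 CPM in unwounded total and 75.9 ± 8.34 CPM in unwounded cortical libraries, a log2 difference of 1.05 (adjusted p = 0.000599 by edgeR). In wounded cells the difference was 0.66 (adjusted p = 0.0116). Ppp1r15b, the constitutive phosphatase subunit that reverses eIF2 phosphorylation, was higher in the cortical fraction by 0.75 and 0.61 and fell with wounding by 0.52 in the total and 0.67 in the cortical fraction. Ppp1r15a, the stress-induced subunit, rose with wounding by 0.96 in the total fraction (adjusted p = 8.61e-05) and 0.47 in the cortical fraction. Without wounded total replicate 1 the changes in the total fraction were -0.75 (adjusted p = 2.29e-05) for Ppp1r15b and 1.00 (adjusted p = 4.51e-06) for Ppp1r15a. The other gene that fell was Impact, an inhibitor of Gcn2 activation, from 12.9 ± 1.52 CPM to 7.48 ± 1.53 CPM, a log2 difference of -0.79 (adjusted p = 0.0419) that was -0.96 (adjusted p = 0.00821) without that library. The kinase genes Eif2ak1, Eif2ak2, Eif2ak3 and Eif2ak4, and Eif2s1 for the phosphorylated subunit, passed in no comparison by edgeR with all 12 libraries, with log2 differences for Eif2ak4 of 0.39 between the unwounded fractions and -0.75 with wounding in the cortical fraction. Without wounded total replicate 1, Eif2ak4 passed in 3 comparisons, at -0.94 (adjusted p = 0.00124) with wounding in the total fraction, Eif2s1 in 2, and Eif2ak1 and Eif2ak3 in 1 each.

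Of 17 other tested genes of the ATF4 response, 3 were higher in the unwounded cortical fraction (Mthfd1l, Pck2 and Vldlr) and 1 was lower, against 6.62% and 7.59% of all genes. The lower one was Eif4ebp1, an inhibitor of cap-dependent initiation, at 298 ± 29.2 CPM in total and 175 ± 15.5 CPM in cortical libraries, a log2 difference of -0.77 (adjusted p = 0.000257 by edgeR). Eif4ebp1 was also lower in the cortical fraction of wounded cells, by -0.58 on the log2 scale. With wounding in the total fraction 4 of 17 rose, where 8.39% of all genes did: Herpud1, Mthfd1l, Nupr1 and Pck2. All 4 also rose without wounded total replicate 1, with Nupr1 at 1.04 (adjusted p = 9.68e-07) and Pck2 at 0.74 (adjusted p = 2.52e-06). Nupr1, a stress-induced chromatin protein, went from 64.0 ± 10.4 to 121 ± 20.1 CPM, a rise of 0.92, and in wounded cells its cortical-to-total log2 difference was -0.96. Pck2, the mitochondrial enzyme that makes phosphoenolpyruvate, rose by 0.77 in the total and 0.49 in the cortical fraction.

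Of 8 tested amino acid transporters, 3 were higher in the unwounded cortical fraction, where 6.62% of all genes were: Slc7a1 for cationic amino acids by 0.79, Slc7a11 for cystine by 0.72 and Slc38a2 for small neutral amino acids by 0.71. In wounded cells 2 were higher in the cortical fraction, against 7.62% of all genes: Slc7a1 by 0.53 and Slc7a5 by 0.49. These differences were 0.76 and 0.62 without wounded total replicate 1. Slc7a5, the large neutral amino acid transporter that brings in leucine, fell with wounding in both fractions. Its level was 127 ± 6.57 CPM in unwounded total and 73.0 ± 11.7 CPM in wounded total libraries, a difference of -0.79 (adjusted p = 0.000252 by edgeR), and -0.57 in the cortical fraction. In the total fraction the difference was -0.93 (adjusted p = 3.83e-07) without wounded total replicate 1. Slc3a2, its partner chain, rose by 0.31 and Slc7a11 by 0.54 in the total fraction with wounding, and by 0.30 and 0.44 without that library. In all, 2 of the 8 rose there and 1 fell, against 8.39% and 7.2% of all genes.

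Of 5 other tested genes of the multi-synthetase complex, 1 was higher and 1 lower in the unwounded cortical fraction, where 14.2% of all genes passed, and 1 rose and 1 fell with wounding in the total fraction, where 15.6% did. Mars, the methionine enzyme of the complex, was higher in the unwounded cortical fraction by 0.44 and rose with wounding in the total fraction by 0.56 (adjusted p = 0.00579 by edgeR). Eef1e1, a scaffold protein of the complex, fell from 31.1 ± 5.16 CPM to 10.01 ± 0.296 CPM with wounding in the total fraction, a log2 difference of -1.63 (adjusted p = 1.11e-05). Eef1e1 was also lower in the unwounded cortical than the unwounded total fraction, by -0.67, and fell with wounding in the cortical fraction, at -0.66 (adjusted p = 0.0413). Without wounded total replicate 1 the wounding differences in the total fraction were 0.50 for Mars (adjusted p = 0.00287) and -1.61 for Eef1e1 (adjusted p = 9.04e-07). Of 17 mitochondrial synthetases, 3 were higher in the unwounded cortical fraction (Iars2, Pars2 and Vars2; 6.62% of all genes) and 3 in the wounded cortical fraction (Mars2, Rars2 and Tars2; 7.62% of all genes). With wounding in the total fraction 2 rose (Fars2 and Vars2) and 1 fell, against 8.39% and 7.2% of all genes. The Vars2 call was lost without wounded total replicate 1 (0.25, adjusted p = 0.11). The gene that fell was Mars2, for methionine, at 25.6 ± 2.06 CPM before and 11.2 ± 0.881 CPM after wounding, a difference of -1.19 (adjusted p = 0.000355) that was -1.23 (adjusted p = 4.14e-05) without that library. Mars2 also fell in the cortical fraction, by 1.03 on the log2 scale (adjusted p = 0.00421), where 2.48% of all genes passed. Between the wounded fractions Mars2 was higher in the cortical one by 0.63 (adjusted p = 0.0245), and by 0.67 (adjusted p = 0.012) without wounded total replicate 1.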

How the data were processed

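Messenger RNA of 12 libraries (4 groups of 3) was measured by sequencing. The authors deposited fragment counts per gene and, in a further table, FPKM (fragments per kilobase of gene, scaled for depth), per the file headers and the values. Per the submitters' processing notes, CASAVA, HISAT2 and the build mm10 were used, and the counting tool, its annotation and their versions are not given in the sources used here. Per the labels' protocols, poly-A RNA was captured, cDNA was primed at random, and the libraries do not keep the strand. The deposited FPKM were proportional to count over gene length and an effective library size of 0.825 to 1.1 times the column total. The gene identifiers matched GENCODE M21 for 54495 of 54532, with the same position for 98.3%, and coding lengths were taken from it. Groups and replicate numbers came from the sample titles. Per-sample columns left unused numbered 0, and every library was counted once.

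The tests ran in edgeR 4.0.16 under R 4.3.3 (filterByExpr, TMM factors, quasi-likelihood F test, two-sided), with DESeq2 1.42.0 as an alternative. The package limma 3.58.1 was present, and no test given here was run in it. Plots used matplotlib 3.10.9 in python 3.11.15. CPM are edgeR's counts per TMM-scaled library size. SE is the log2 fold change divided by the square root of F, and intervals are 95% with 8 residual degrees of freedom among 12 libraries. The model was tested on simulated counts with 200 genes changed. The 35 genes, their roles and the other lists were chosen with earlier results of these data known. Genes named with a value in each library are Atf4 and those with an adjusted p under 0.05 in at least 1 of 5 comparisons, with Trib3, Chac1, Asns and Iars added after their values were seen. From the other lists up to 3 called genes per comparison, those with the largest change, and the whole eIF2 kinase list may be named, with Herpud1, Vldlr and Slc3a2 as counted.

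Alternatives were RLE and library size scaling, no low-count filter, only genes averaging 50 counts or more, DESeq2 without independent filtering, only the groups compared, the replicate number as a block, a loess trend (span 0.5) on deposited gene length removed, both together, and leaving out each library. Promoter windows and sequences came from RefSeq, GRCm38.p6. A window for Cars, Hars, Lars, Nars, Rars, Vars and Wars was not used here. A further promoter match is not reported here.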

Additional observations from a re-analysis of the deposited data

Results flagged for a closer look

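The cortical-to-total ratio of Atf4 differed between wounded and unwounded cells in a test of the difference itself. The log2 ratio was 1.49 in unwounded and 0.43 in wounded cells, a difference of -1.05 (SE 0.16, adjusted p = 0.012 by edgeR's quasi-likelihood test), with 3 libraries in each of the 4 groups. The 3 wounded cortical libraries lay below the 3 unwounded cortical libraries and above the total libraries of both states. Atf4 was taken up with its fold changes in these libraries already known, so this p-value is not independent support for the difference.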

How the results depend on the processing

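No alternative reversed the direction of a called value. Between the wounded fractions, 3 of the 35 genes passed (15.7% of all genes), against 5 with RLE scaling (15.2% of all genes), 7 with library size scaling (20.1%), 5 with a mean of at least 50 counts (22.2%), 8 with DESeq2 (18.6%), 6 with the gene length trend removed (9.28%), 6 with the replicate block and that trend removed (8.64%), and 0 with only the groups compared (7.66%). With only the groups compared, 5 in place of 9 passed for wounding in the total fraction (9.25% in place of 15.6% of all genes) and 8 in place of 3 in the cortical fraction (11.3% in place of 2.48%). That setting was not run for the difference of ratios, which needs all 4 groups. Leaving out 1 library at a time gave 2 to 14 genes between the unwounded fractions (9 with all libraries), 0 to 12 between the wounded fractions, 6 to 11 for wounding in the total fraction, 2 to 6 in the cortical fraction, and 0 to 2 for the difference of ratios (1 with all libraries). In the last, the 2 were Atf4 and Dars without wounded total replicate 1.

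The replicate numbers were not taken as pairing the libraries, since the 18 correlations between the deviations of same-numbered libraries ran from -0.0331 to 0.0913. With the replicate block, 9, 4, 9, 3 and 1 genes passed in the 5 comparisons, in place of 9, 3, 9, 3 and 1, and the Atf4 difference of ratios was -1.05 (adjusted p = 0.029). Of 25 calls, 8 passed in every alternative tried. The cause of these changes was not tested.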
